A study of Mus musculus with 4 samples.

Results

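The genes described here are 10 members of the NF-kB system, taken by symbol from the 32285 genes that each library lists. They are the 5 subunit genes Nfkb1, Nfkb2, Rela, Relb and Rel, the 4 genes grouped here as inhibitors, Nfkbia, Nfkbiz, Tnfaip3 and Bcl3, and 1 kinase gene, Ikbkb. Each symbol matched 1 Ensembl identifier (in that order ENSMUSG00000028163, ENSMUSG00000025225, ENSMUSG00000024927, ENSMUSG00000002983, ENSMUSG00000020275, ENSMUSG00000021025, ENSMUSG00000035356, ENSMUSG00000019850, ENSMUSG00000053175, ENSMUSG00000031537), and all 10 had UMIs in every library. Their messages were followed by scRNA-Seq in whole kidneys of male C3H mice, with 1 library for each of 4 conditions. Mice were WT or SP (Sweet Pee, homozygous for a missense mutation in Slc5a2, the gene for the glucose transporter SGLT2, which leaves no working SGLT2 in any cell of the animal). Both genotypes received ND or HFD (60% of calories from fat) from 10 weeks of age for 8 weeks and were 18 weeks old at harvest, which gives the groups WT-ND, SP-ND, WT-HFD and SP-HFD. The methods name the substrain as C3H/HeJ, which is known for a Tlr4, a receptor that feeds into NF-kB, that does not signal. All 4 groups shared that background, and the kidneys of all 4 were dissociated with enzymes before capture. How many animals stand behind each library is not given in the sources used here.

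NF-kB is a family of dimeric transcription factors that switches on genes of inflammation, cell adhesion and survival. In resting cells the dimers are held in the cytoplasm by inhibitor proteins, of which IkBa, the product of Nfkbia, is the best known. Signals from TNF, IL-1 or microbial products activate the IkB kinase, IkBa is degraded, and dimers such as p50 (from Nfkb1) with p65 (from Rela) enter the nucleus. A second branch processes the product of Nfkb2 into p52, which pairs with RelB. The system limits itself: Nfkbia and Tnfaip3, which encodes the ubiquitin-editing enzyme A20, are themselves NF-kB targets, so that their messages are known to rise when the pathway is active. In the kidney the pathway is known in leukocytes, endothelium and injured tubules.

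Start-site sequences are shown first for the members in which a strict form of the NF-kB consensus was found, with the matching letters marked. RefSeq promoter windows (250 bases before to 50 after a gene's start, GRCm38.p6) were matched by symbol for 6 of the 10 members, and Nfkb1, Relb, Nfkbiz and Ikbkb had no entry. A strict form of the consensus, which is GGG, any 2 bases and TTTCC, was searched on both strands and was present in at least 1 window of 4 of these 6 genes (Nfkbia, Tnfaip3, Rel and Nfkb2) and in 1.63% of all 32851 windows, or 1.89% of 27025 genes. A looser form, which is GGG, any 5 bases and CC and takes in every match of the first, was in 6 of 6 members and in 50.8% of all windows. For the 4 genes with the stricter match, the 120 bases before the start are printed 5′ to 3′ on the gene's own strand, with the match or its reverse complement in capitals.
Nfkbia, chr12:55492648-55492767, minus strand: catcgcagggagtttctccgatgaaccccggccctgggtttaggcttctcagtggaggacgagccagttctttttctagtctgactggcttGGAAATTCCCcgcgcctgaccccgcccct
Tnfaip3, second of its windows, chr10:19015411-19015530, minus strand: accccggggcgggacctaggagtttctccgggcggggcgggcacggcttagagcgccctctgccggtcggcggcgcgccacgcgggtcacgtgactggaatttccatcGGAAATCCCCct
Rel, chr11:23770970-23771089, minus strand: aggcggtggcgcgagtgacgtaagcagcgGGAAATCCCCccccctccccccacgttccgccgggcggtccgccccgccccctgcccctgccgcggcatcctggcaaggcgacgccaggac
Nfkb2, first of its windows, chr19:46304617-46304736, plus strand: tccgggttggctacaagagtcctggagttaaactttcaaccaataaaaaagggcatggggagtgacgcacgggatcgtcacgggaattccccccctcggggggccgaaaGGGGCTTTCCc
The match lay from -29 to -20 bases of the start in Nfkbia, from -12 to -3 in Tnfaip3, from -91 to -82 in Rel and from -11 to -2 in Nfkb2. In Nfkbia, Tnfaip3 and Rel it lay on the strand opposite to the gene. A match is a run of letters and not a measured binding site.

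After filters on genes and mitochondrial UMIs and removal of likely doublets, 32280 cells were kept, of which 9924 and 8947 came from WT mice on ND and HFD and 6389 and 7020 from SP mice. Of 34 clusters, 24 were assigned to 14 classes by marker genes, and a class name here means cells like that type. The class called T cells also held natural killer cell markers, which summed to 2106 CPM beside 2921 CPM for its T cell markers. The other 10 clusters, with 7459 cells, stayed unnamed. Levels are UMI counts pooled over a class in a library and scaled to the total UMIs of those cells (CPM). Median UMIs per kept cell ran from 3893 to 5644, and between 32.7% and 49.8% of barcodes per library had at least 50% mitochondrial UMIs. Any pair of libraries shared 54 to 77 barcodes, of which 9 to 31 were kept cells in both. Slc5a2, the mutated gene, was at 294.8 and 233.3 CPM in proximal tubule cells of WT-ND and WT-HFD and at 41.2 and 86.1 CPM in those of SP-ND and SP-HFD, and a missense mutation need not lower the message. No difference was tested, since a single library per condition gives no replicate error. Intervals in parentheses are 95% intervals (exact Poisson for a level, exact conditional binomial for a ratio, Clopper-Pearson for a share) and cover counting error only. A gene is said to have risen or fallen in a class where the ratio of the libraries was at least 2-fold and at least 30 UMIs stood behind it. A pooled value cannot tell fewer expressing cells from less RNA per cell.

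Among the subunits, Rel, which encodes the c-Rel subunit of lymphoid and myeloid cells, had the largest share of its message in leukocytes. Its level averaged 186 ± 64.6 CPM (SD, n = 4) in the macrophage, monocyte or dendritic class (hereafter macrophages), 82.4 ± 14.5 CPM (SD, n = 4) in T cells, and 1.20 ± 0.377 CPM (SD, n = 4) in proximal tubule cells, with each library counted as 1 value. In macrophages it was 144 CPM on ND and 281 CPM on HFD in WT mice, and 170.3 and 149 CPM in SP mice. WT-HFD stood above the other 3 libraries, which lay close together. The leukocyte classes held 60.0% of all Rel UMIs, as a mean over the 4 libraries, although they held only 5.53% of the UMIs of all genes. The proximal tubule class showed the opposite balance, with 3.13% of Rel UMIs against 27.3% of all UMIs. Below T cells, the ranges of neighbouring classes overlapped from endothelium downward. Macrophages lay above T cells in every library, at 144 to 281 CPM against 67.6 to 100.5 CPM, while neutrophils and B or plasma cells overlapped both.

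The ubiquitous subunits were more even. Nfkb1, which encodes the p105 precursor of p50, was highest in macrophages, at 102 CPM on ND and 132 CPM on HFD in WT mice, and 115.2 and 92.9 CPM in SP mice. No other class with at least 50 cells overlapped that range, and T cells (61.5 to 84.2 CPM) and endothelial cells (56.5 to 63.5 CPM) followed with ranges that overlapped each other. It was lowest in proximal tubule cells, at 7.86 to 9.65 CPM. Rela, which encodes p65, was on average highest not in leukocytes but in endothelial cells, at 53.0 CPM on ND and 56.8 CPM on HFD in WT mice, and 57.4 and 51.2 CPM in SP mice. Those 4 values all lay above the macrophage range of 36.7 to 47.3 CPM. The ranges of macrophages and podocytes (31.3 to 41.0 CPM) overlapped, and proximal tubule cells were again lowest, at 6.59 to 10.3 CPM. The subunits of the second branch were sparser: Relb averaged 31.9 ± 5.67 CPM (SD, n = 4) in macrophages and 2.42 ± 1.12 CPM (SD, n = 4) in proximal tubule cells, and Nfkb2 35.9 ± 5.85 CPM (SD, n = 4) and 4.54 ± 0.817 CPM (SD, n = 4). For both, neighbouring classes overlapped along most of the order.

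The genes grouped as inhibitors reached their highest levels in myeloid cells and T cells. Of these, Nfkbiz and Bcl3 encode nuclear IkB proteins, and their levels are not read here as a brake on the pathway. Nfkbia averaged 2395 ± 406 CPM (SD, n = 3) in neutrophils, over the 3 libraries with at least 50 of them, 694 ± 164 CPM (SD, n = 4) in macrophages and 603 ± 195 CPM (SD, n = 4) in T cells. Outside the leukocytes, endothelial cells averaged 454 CPM and the thin limb 252 CPM. Mural cells (163 CPM) and the collecting duct (160 CPM) followed, with ranges that overlapped. Endothelial Nfkbia was 298 CPM on ND and 473 CPM on HFD in WT mice, and 544 and 501 CPM in SP mice, so that WT-ND was the lowest of the 4. Tnfaip3 was high in neutrophils (307 to 470.1 CPM) and T cells (272 to 409.9 CPM), whose ranges overlapped, and lower in macrophages (78.1 to 125 CPM) and proximal tubule cells (0.766 to 1.81 CPM). Leukocytes held 52.3% of Tnfaip3 UMIs, 35.0% of Nfkbiz UMIs and 25.4% of Nfkbia UMIs. Nfkbiz, which encodes the nuclear regulator IkBzeta, averaged 821 ± 117 CPM (SD, n = 3) in neutrophils and 252 ± 31.4 CPM (SD, n = 4) in macrophages. It was also present in the collecting duct, where it was 73.3 CPM on ND and 66.1 CPM on HFD in WT mice, and 49.0 and 73.0 CPM in SP mice. Bcl3, a nuclear IkB protein that works with p50 and p52, was sparse everywhere but in neutrophils, where the 3 libraries ran from 42.4 to 129.8 CPM on 4 to 10 UMIs each. In the distal convoluted tubule it never passed 2.26 CPM. The kinase gene Ikbkb, for the IKK2 subunit that phosphorylates IkBa, was highest in macrophages (97.7 to 119.9 CPM) and endothelial cells (83.1 to 107 CPM), which overlapped, and it was seen in every tubule class at 19.8 to 39.1 CPM.

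**Figure D1:**
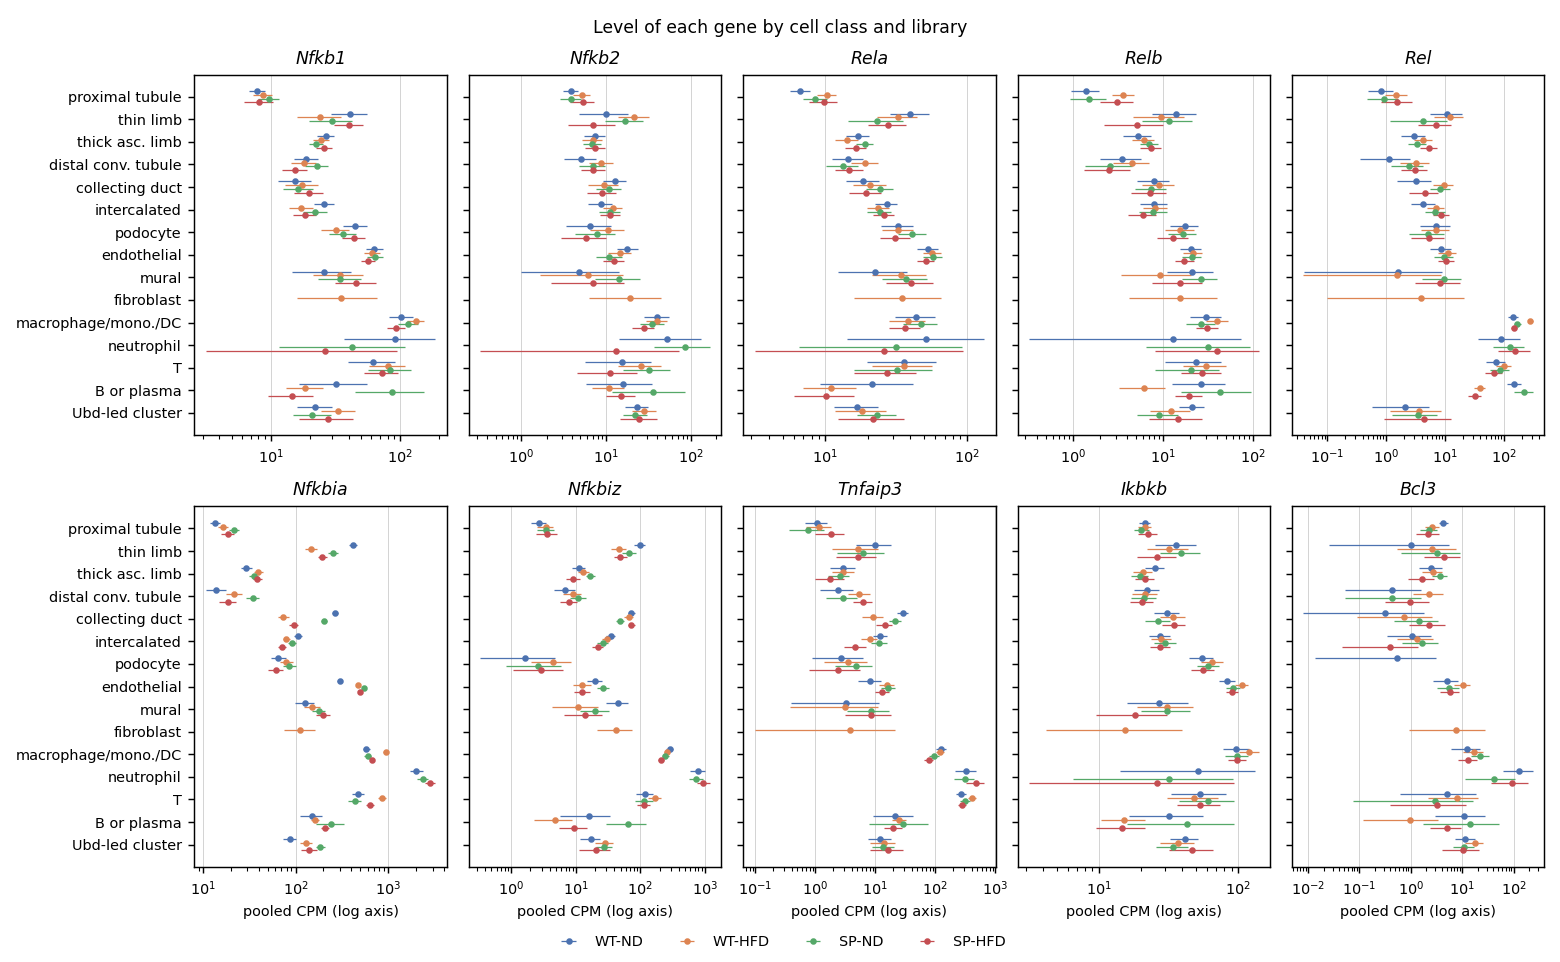
Pooled level of each of the 10 genes (CPM, log axis) by cell class, with 1 point per library and bars for exact Poisson 95% intervals, for classes with at least 50 cells in the library; points with 0 UMIs are not drawn. Rel and Tnfaip3 are highest in leukocytes, the 4 endothelial values of Rela lie above its macrophage values, and proximal tubule cells are the lowest class for Nfkb1, Nfkb2, Rela, Relb, Rel, Nfkbia and Tnfaip3.

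**Figure D2:**
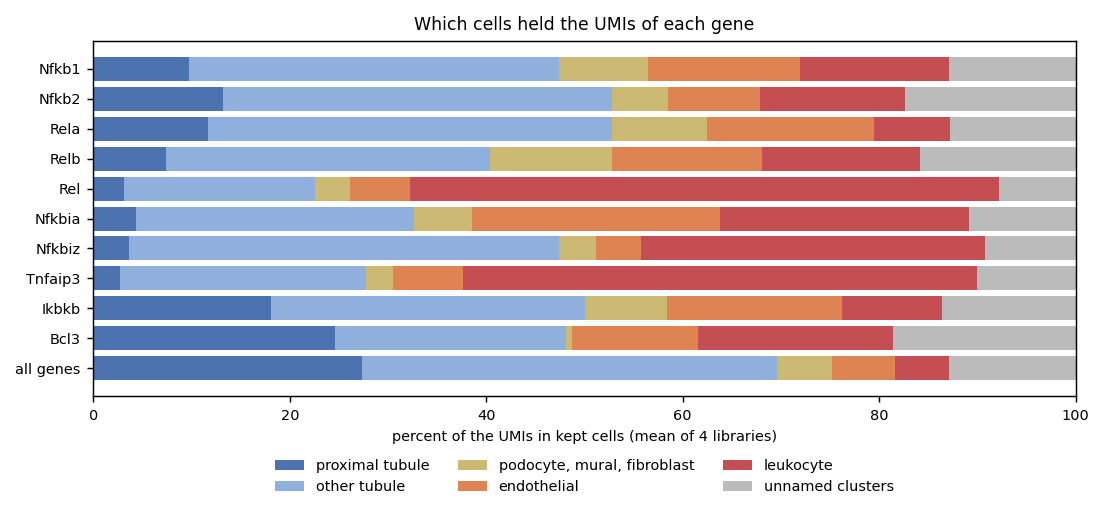
Stacked bars of the percent of each gene's UMIs held by 6 groups of cells, as the mean of the 4 libraries, beside the same for all genes. Leukocytes hold 60.0% of Rel and 52.3% of Tnfaip3 UMIs against 5.53% of all UMIs.

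The first comparison was between diets, in each cell class and genotype. Over 12 classes with at least 50 cells in both WT libraries, 12 of 96 tested pairs of member and class (12.5%) were at least 2-fold apart between WT-HFD and WT-ND, 5 higher and 7 lower, while 5.77% of all gene and class pairs were. In SP mice, with neutrophils as a further class, 11 of 94 pairs (11.7%) passed the same fold, 2 higher and 9 lower, against 5.56% of all pairs. Of those 11, 5 lay in B or plasma cells, where 58.0% of all tested genes passed the fold, and without that class the count was 6 of 87 (6.90%), against 3.78% of all pairs. Without it the WT count was 10 of 90, against 5.08%. These counts describe 4 libraries and were not tested. Of all 29 pairs past the fold in the 4 comparisons, 14 stayed past it under every alternative that gave them a value and 15 did not.

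The clearest lower values on HFD were those of feedback inhibitors in the collecting duct principal cells, which reabsorb water and sodium in the last part of the nephron. Nfkbia was 267 CPM (249 to 286, 835 UMIs) in WT-ND and 73.8 CPM (64.0 to 84.6, 203 UMIs) in WT-HFD. In SP mice it was 203 CPM (189 to 219, 709 UMIs) in SP-ND and 95.9 CPM (85.3 to 107, 297 UMIs) in SP-HFD. Both HFD libraries lay below both ND libraries, with counting intervals that did not meet. On the log2 scale HFD over ND gave -1.86 (-2.08 to -1.63) for WT and -1.08 (-1.28 to -0.89) for SP, so that Nfkbia fell in both genotypes. Tnfaip3, its partner in feedback, was 28.8 CPM on ND and 9.08 CPM on HFD in WT mice, and 21.5 and 14.2 CPM in SP mice in the same cells. It fell in WT, with a log2 ratio of -1.66 (-2.37 to -1.01), and its ratio in SP was -0.60 (-1.17 to -0.04), short of 2-fold. Nfkbiz did not pass the fold there, with ratios of -0.15 in WT and 0.57 in SP. The subunits Nfkb1, Nfkb2, Rela and Relb lay between -0.44 and 0.27 in both genotypes, and Rel rose in WT, with a log2 ratio of 1.56 (0.46 to 2.78), on 36 UMIs in all.

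The collecting duct class was made of a pair of clusters, one led by the water channel gene Aqp4 with 380 cells and one led by Kcne1 with 1660 cells, and the difference was larger in the former. In the Aqp4-led cluster Nfkbia was 713 CPM in WT-ND and 85.2 CPM in WT-HFD, a log2 ratio of -3.07 (-3.42 to -2.72). In SP mice its values were 511 CPM on ND and 132 CPM on HFD, a ratio of -1.95 (-2.26 to -1.66). In the Kcne1-led cluster the ratios were -1.05 (-1.36 to -0.74) in WT and -0.48 (-0.75 to -0.20) in SP, below 0 as well and nearer to it. Tnfaip3 in the Aqp4-led cluster was 74.9 CPM in WT-ND and 5.26 CPM in WT-HFD, a ratio of -3.83 (-5.51 to -2.52). It was 40.2 and 21.8 CPM in SP-ND and SP-HFD, a ratio of -0.88 (-1.77 to -0.03). The Aqp4-led cluster held 82 and 108 cells of WT mice on ND and HFD, and 74 and 116 cells of SP mice. In the collecting duct the 8 macrophage markers summed to 2.54 to 9.37 CPM over the libraries and the 6 T cell markers to 1.29 to 5.76 CPM. UMIs were seen for 7 of 8 and 6 of 6, and the class's own 6 markers summed to 12416 to 16254 CPM. Markers of other tubule segments were higher. Those of the distal convoluted tubule summed to 3037 CPM on ND and 1848 CPM on HFD in WT mice, and 3560 and 2286 CPM in SP mice. Those of the proximal tubule summed to 1020 and 470 CPM in WT and 267 and 262 CPM in SP. Those of the thick ascending limb and thin limb ran from 911 to 1167 CPM and from 736 to 1076 CPM. Their part in the result was not tested.

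Shares of cells with a Nfkbia UMI were also lower on HFD after depth was equalized. With each cell thinned to 1000 UMIs and shallower cells left out (19 to 60 per library), Nfkbia was seen in 14.3% (11.4 to 17.7; 509 cells) of collecting duct cells in WT-ND and 4.73% (2.91 to 7.21; 423 cells) in WT-HFD. The shares in SP-ND and SP-HFD were 11.8% (8.94 to 15.3; 431 cells) and 7.4% (5.32 to 9.98; 527 cells). Without thinning they were 35.0% on ND and 23.0% on HFD in WT mice, and 38.9% and 27.3% in SP mice, again lower on HFD in each genotype. No kidney cell type is known to lack Nfkbia, and the lowest class, proximal tubule, gave 0.909% to 2.76% after thinning, at median depths of 9070 to 15024 UMIs against 4441 to 7269.5 in the collecting duct. All 4 collecting duct shares lay above that range.

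Thin limb cells, which line the loop of Henle in the inner kidney, showed the same direction for Nfkbia, most of all in WT. The level was 413 CPM on ND and 147 CPM on HFD in WT mice, and 252 and 195 CPM in SP mice, with WT-ND far above the other 3. The log2 ratio was -1.49 (-1.76 to -1.23) for WT and -0.37 (-0.62 to -0.12) for SP, so that Nfkbia passed the 2-fold line in WT and not in SP, and the difference between these ratios was not tested. Nfkbiz was 98.0 CPM on ND and 47.2 CPM on HFD in WT mice, and 67.6 and 49.4 CPM in SP mice. It fell in WT, with a log2 ratio of -1.05 (-1.56 to -0.56), a call that held in 6 of 10 alternative settings. Nfkb2 moved the other way in WT, with a log2 ratio of 1.10 (-0.01 to 2.32) on 35 UMIs, which was also lost in some settings. The early response genes and the NF-kB targets of thin limb cells were lower on HFD in WT as well (below). Macrophage markers summed to 48.9 to 79.2 CPM in this class over the libraries, with UMIs for 7 of 8, against 13712 to 18327 CPM for the class's own markers. Their part in the result was not tested.

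In the distal convoluted tubule, which reabsorbs sodium chloride, Tnfaip3 rose on HFD in both genotypes. Its level was 2.41 CPM on ND and 5.43 CPM on HFD in WT mice, and 2.84 and 6.15 CPM in SP mice, so that both HFD libraries lay above both ND libraries, on 11 to 32 UMIs each. The log2 ratios were 1.17 (0.09 to 2.35) in WT and 1.12 (0.15 to 2.17) in SP, and both stayed past the fold in every alternative that gave a value. Nfkbia did not follow it. There Nfkbia was 14.0 CPM on ND and 21.9 CPM on HFD in WT mice, and 34.5 and 18.6 CPM in SP mice, a ratio of 0.64 (0.17 to 1.12) in WT and -0.89 (-1.27 to -0.51) in SP, neither of them 2-fold. SP-ND was the highest library and WT-ND the lowest. Markers of the thick ascending limb were also higher on HFD in this class. They summed to 6594 and 9594 CPM on ND and HFD in WT mice, and 6360 and 10241 CPM in SP mice. The class's own markers summed to 12617 to 13715 CPM. The thick ascending limb class itself held 1.77 to 2.94 CPM of Tnfaip3. The part of these markers in the result was not tested.

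In the acid-base regulating intercalated cells Tnfaip3 was 12.1 CPM on ND and 8.02 CPM on HFD in WT mice, and 11.6 and 4.62 CPM in SP mice. It fell in SP, with a log2 ratio of -1.33 (-2.10 to -0.60), a call lost with no doublets removed and no integration, and its ratio in WT was -0.59 (-1.20 to 0.01). Nfkbia was 106 CPM on ND and 79.8 CPM on HFD in WT mice, and 90.7 and 71.2 CPM in SP mice, with ratios of -0.41 in WT and -0.35 in SP. The 2 clusters of this class went apart, so the class ratio is an average of unlike parts. In the Slc4a1-led cluster, of type A markers, Nfkbia ratios were -1.0 (-1.27 to -0.74) in WT and -0.88 (-1.14 to -0.62) in SP, and in the Slc26a4-led cluster they were 0.30 (0.01 to 0.60) and 0.54 (0.17 to 0.91). The thick ascending limb, the salt-reabsorbing segment before the distal convoluted tubule, held 29.6 to 39.5 CPM of Nfkbia, and no member passed the fold there in WT. Bcl3 fell there in SP, with a log2 ratio of -1.17 (-2.20 to -0.23), from 38 UMIs to 13, a call lost in at least 1 setting.

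Proximal tubule cells, where SGLT2 works, had the lowest levels of most members. Relb was the member that passed the fold, at 1.40 CPM on ND and 3.63 CPM on HFD in WT mice, and 1.53 and 3.11 CPM in SP mice. Both HFD libraries lay above both ND libraries, on 20 to 56 UMIs, and the log2 ratio was 1.38 (0.73 to 2.05) for WT and 1.02 (0.10 to 1.95) for SP. Relb therefore rose in both, although over the alternatives the WT ratio ran from 0.76 to 2.23 and fell short of 2-fold with no doublets removed and no integration, and the SP call was also lost in some settings. Rela had a WT ratio of 0.64 (0.31 to 0.97) and an SP ratio of 0.19 (-0.25 to 0.63), and Nfkbia had 0.30 (0.06 to 0.54) and -0.23 (-0.53 to 0.07), all within 2-fold. In WT, 9 of the 10 members had a ratio above 0 in this class, with a median of 0.32 beside 0.02 over all genes tested there. In SP, the median over 8 tested members was 0.11. Markers of several other classes were also highest in the WT-HFD profile of this class: intercalated markers summed to 99.2 CPM in WT-HFD (21.3 to 29.5 CPM in the other 3), endothelial markers to 34.5 CPM in WT-HFD (7.28 to 11.01 CPM in the other 3) and podocyte markers to 30.4 CPM in WT-HFD (8.93 to 11.3 CPM in the other 3). The summed markers of the distal convoluted tubule were 82.6 CPM in WT-HFD (35.9 to 47.6 CPM in the other 3) and those of the thick ascending limb 501 CPM in WT-HFD (339 to 402 CPM in the other 3). Macrophage markers, at 3.62 and 7.92 CPM in WT and 7.74 and 10.4 CPM in SP on ND and HFD, did not peak there. B or plasma markers were higher on HFD in both genotypes, at 7.08 and 26.4 CPM in WT and 1.53 and 32.0 CPM in SP. Thin limb markers were as well, at 56.1 and 151 CPM in WT and 33.5 and 152 CPM in SP. Natural killer markers, at 1.79 and 5.58 CPM in WT and 0.153 and 0.388 CPM in SP, were highest in WT-HFD. Of 11 early response genes, 9 had a WT ratio above 0, with a median of 0.47. The part of these genes and markers in the WT and SP values was not tested.

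Endothelial cells had the reverse of the collecting duct in WT. Nfkbia was 298 CPM (278 to 319, 831 UMIs) in WT-ND and 473 CPM (449 to 497, 1489 UMIs) in WT-HFD, a log2 ratio of 0.67 (0.54 to 0.79). In SP mice the ratio was -0.12 (-0.21 to -0.02). Neither was 2-fold, and all 3 endothelial clusters had a WT ratio above 0, at 1.03 (0.73 to 1.34), 0.46 (0.28 to 0.64) and 0.87 (0.65 to 1.09) in the Esm1-led, Sapcd1-led and Slc14a1-led cluster. Tnfaip3, at 8.24 CPM on ND and 15.6 CPM on HFD in WT mice, and 16.4 and 13.0 CPM in SP mice, had a WT ratio of 0.92 (0.17 to 1.70). Nfkbiz went the other way. It was 20.1 CPM on ND and 12.7 CPM on HFD in WT mice, and 26.8 and 12.7 CPM in SP mice, and it fell in SP, with a log2 ratio of -1.07 (-1.60 to -0.56), a call lost when each cell counted equally, with a WT ratio of -0.66 (-1.28 to -0.05). Its SP ratio was -2.54 (-3.72 to -1.5) in the Sapcd1-led cluster, which has markers of glomerular endothelium. Bcl3 rose in WT, with a log2 ratio of 1.02 (0.07 to 2.04) on 46 UMIs, a call that held in 6 of 10 alternatives. In mural cells, the contractile cells of the vessel wall, Nfkbiz was 45.0 CPM on ND and 10.8 CPM on HFD in WT mice, and 20.2 and 13.9 CPM in SP mice on 7 to 28 UMIs, and it fell in WT, with a log2 ratio of -2.05 (-3.49 to -0.83).

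Among leukocytes, Rel had the largest macrophage ratio of the 10 members in WT, at 0.97 (0.67 to 1.27), just under 2-fold. The ratio was 0.95 (0.55 to 1.36) in the C1qa-led cluster of resident macrophage markers and 1.16 (0.70 to 1.63) in the Adgre4-led cluster. In SP macrophages the ratio was -0.20 (-0.47 to 0.08). Macrophage Nfkbia followed, at 0.69 (0.54 to 0.84) in WT and 0.16 (0.02 to 0.30) in SP. T cell Nfkbia was 477 CPM on ND and 862 CPM on HFD in WT mice, and 432 and 640.1 CPM in SP mice, ratios of 0.85 (0.60 to 1.11) and 0.57 (0.29 to 0.85), and both HFD libraries lay above both ND libraries. The median of all genes tested in T cells was 0.17 in WT. Early response genes moved with these values in WT, with 11 of 11 above 0 and a median of 0.39 in macrophages, and 10 of 11 above 0, 3 of them past the fold, and a median of 0.51 in T cells, where 11.3% of all genes passed the fold. In SP their medians were -0.06 and -0.47. Their part was not tested. Natural killer markers in the T cell class summed to 1851 CPM on ND and 3157 CPM on HFD in WT mice, and 1524 and 1748 CPM in SP mice. Its T cell markers summed to 2038 and 3117 CPM in WT and 2665 and 3460 CPM in SP. The part of this mix in the T cell values was not tested. Rel fell in B or plasma cells, with a log2 ratio of -1.96 (-2.47 to -1.45) in WT and -2.76 (-3.42 to -2.07) in SP, but that class joined a B cell cluster led by Ighd and a plasma cell cluster led by Iglc1 in different proportions by library. SP-ND held 47 B cells and 6 plasma cells, and SP-HFD 67 and 124. In the B cell cluster alone the WT ratio of Rel was -1.07, and SP-ND had too few cells for a value. Nfkb1, Nfkb2, Relb and Ikbkb were also past the fold in that class in SP, all lower, none of the SP calls held in every setting, and the ratio of Relb and of Ikbkb turned above 0 when the clusters were held at fixed shares. All genes tested in that class in SP had a median of -1.03.

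**Figure D3:**
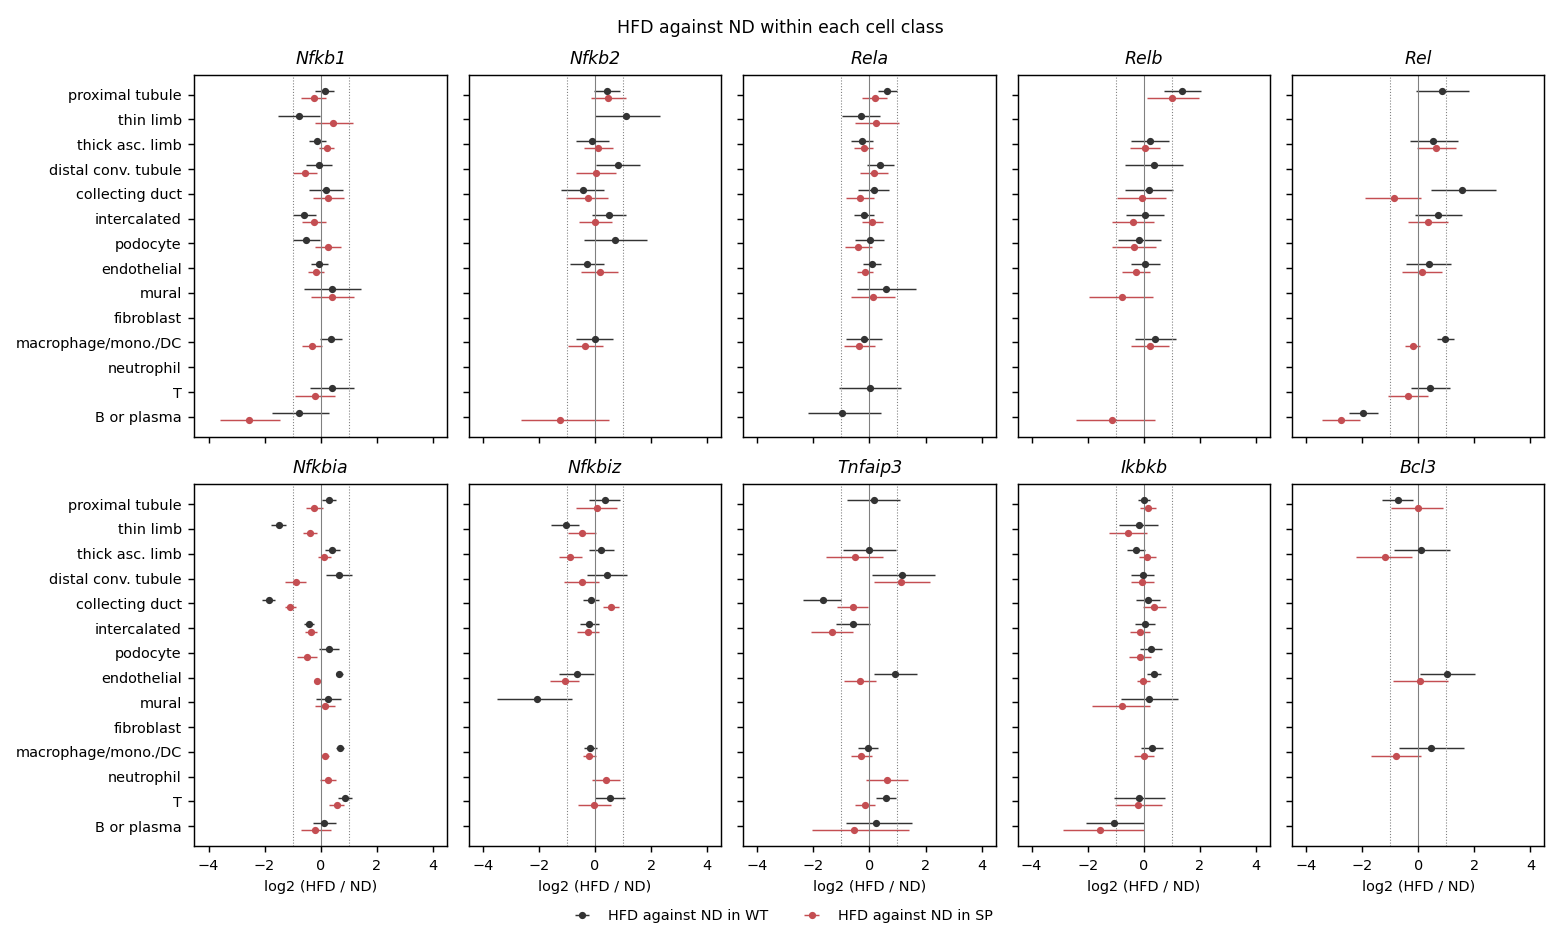
Log2 ratio of HFD to ND for each member and class, WT in black and SP in red, with 95% counting intervals and dotted lines at 2-fold, for pairs with at least 30 UMIs. Nfkbia lies below 0 in the collecting duct and thin limb in both genotypes, Tnfaip3 lies above 1 in the distal convoluted tubule in both, and Ikbkb stays within 2-fold outside B or plasma cells.

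Other genes of the pathway were counted from 6 lists, of ligands, receptors, adaptors and kinases, further inhibitors, targets and early response genes. Over the named classes, the target list had 24 pairs higher and 16 lower of 105 tested in WT on HFD, and 14 higher and 13 lower of 112 in SP. Adaptors and kinases had 1 higher and 6 lower of 148 in WT and 1 and 6 of 153 in SP, which is near the 5.77% and 5.56% of all pairs. Receptors had 3 higher and 3 lower of 41 in WT and 0 and 3 of 48 in SP. The inhibitors beyond the members had 1 and 1 of 83 in WT and 0 and 4 of 87 in SP. Ligands were mostly too sparse to test, with 5 higher and 1 lower of 13 in WT and 2 and 1 of 14 in SP.

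Targets differed in direction between segments. In proximal tubule cells of WT mice, 5 of 10 tested targets rose on HFD and none fell (median 1.05 beside 0.02 for all genes, of which 6.96% passed the fold). The markers of other cells and the early response genes that were higher in the same WT-HFD profile are given above for that class, and 2 of the 11 early response genes rose. The targets included the adhesion molecule gene Vcam1, from 1.09 to 6.88 CPM, and the chemokine gene Cxcl1, from 0.786 to 8.11 CPM. Ccl5, Cxcl16 and Ier3 were the others that rose. In SP proximal tubule cells 2 of 8 rose, Cxcl16 and the prostaglandin synthase gene Ptgs2, and 1, Cxcl10, fell, where 7.78% of all genes passed the fold. In the thin limb of WT mice 6 of 8 targets fell and none rose, where 5.27% of all genes passed the fold, among them Icam1, from 31.0 to 12.9 CPM, and Gadd45b, from 759 to 264 CPM. In the collecting duct, the class in which Nfkbia and Tnfaip3 fell, 3 of 9 targets fell in WT (Icam1, from 27.5 to 8.36 CPM, Cxcl1 and Csf1) and 4 of 11 in SP (Ccl5, Cxcl1, Cxcl2 and Birc3), and none rose in either, where 5.44% and 3.47% of all genes passed the fold. The distal convoluted tubule, where Tnfaip3 rose, had 2 of 6 higher in WT and 3 of 8 in SP and none lower, where 3.25% and 2.47% of all genes passed. Ier3, an early NF-kB target, was 136 CPM on ND and 566 CPM on HFD in WT mice, and 104 and 380.2 CPM in SP mice there, both HFD libraries above both ND libraries. The thick ascending limb markers given above for that class were higher on HFD as well, and their part was not tested.

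Ligand and receptor genes had a few changes of their own. Il1b, which encodes IL-1beta, was 0.699 CPM on ND and 3.18 CPM on HFD in WT mice, and 0.919 and 0.259 CPM in SP mice in proximal tubule cells, with WT-HFD above the other 3, and its log2 ratio in WT was 2.19 (1.35 to 3.1), on 16 and 49 UMIs. Markers of neutrophils, which are known for Il1b, summed there to 2.36 and 6.17 CPM in WT and 8.73 and 1.94 CPM in SP, and their part was not tested. Il1r1, its receptor gene, was 33.9 CPM on ND and 13.1 CPM on HFD in WT mice, and 33.8 and 23.9 CPM in SP mice, all in the collecting duct. In the thin limb it was 31.0 CPM on ND and 7.73 CPM on HFD in WT mice, and 11.6 and 18.0 CPM in SP mice. It fell on HFD in WT in both, and in intercalated cells of both genotypes. Tnf rose in T cells in both genotypes, from 20.5 to 56.3 CPM in WT and from 17.4 to 40.2 CPM in SP. These levels rest on few UMIs, since that class held 344521 to 621749 UMIs of all genes per library. Nfkbid, an atypical IkB gene, rose in WT T cells, from 69.2 to 165 CPM. In the T cell class 11.3% of all genes passed the fold in WT and 6.13% in SP.

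Early response genes such as Fos, Jun, Egr1 and Atf3, which are known to be induced by handling and enzymatic dissociation of tissue, were followed beside the members. In the WT thin limb, where Nfkbia and Nfkbiz fell, 8 of 11 early response genes fell on HFD and none rose, with a median of -1.37 beside -0.03 for all genes. In the WT collecting duct none of 11 passed the fold, with a median of -0.25, and in SP none did, with a median of 0.38. In endothelial cells, 6 of 11 fell in WT and 9 of 11 in SP, with medians of -1.10 and -1.40, while Nfkbia was higher in WT and close to level in SP. Of all genes tested in that class, 4.28% and 2.86% passed the fold. In the distal convoluted tubule 4 of 11 rose in WT, with a median of 0.92, and none in SP. In the thick ascending limb, where Bcl3 fell in SP, 5 of 11 fell in SP and none rose, with a median of -0.83 beside 0.02 for all genes. There 1 of 11 rose in WT and none fell, with a median of 0.29, and 2.57% of all genes in WT and 2.95% in SP passed the fold. The part of these genes' movement in the values of the members was not tested.

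**Figure D4:**
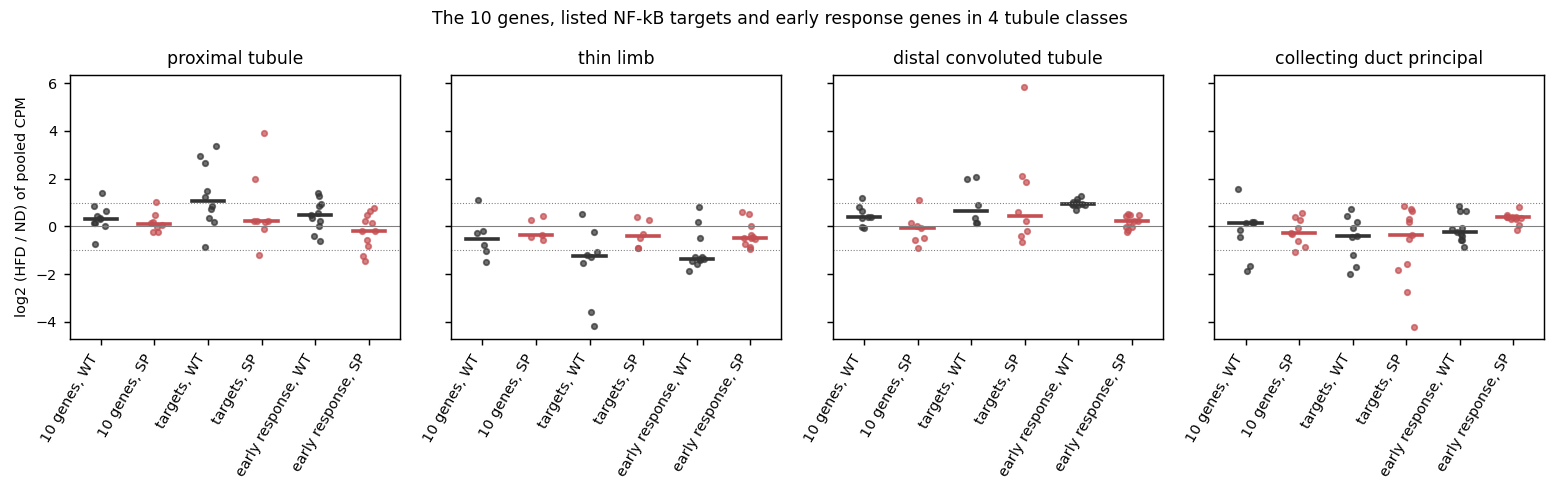
Log2 ratio of HFD to ND for the members, the NF-kB targets and the early response genes in 4 tubule classes, 1 point per gene with at least 30 UMIs, WT and SP side by side, with bars at the medians. In the WT thin limb the targets (median -1.24) and the early response genes (median -1.37) lie below 0, and in the WT proximal tubule the targets lie above it (median 1.05).

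The other comparison was between genotypes on each diet, that is, with and without working SGLT2. On ND, 3 of 91 pairs (3.30%) were at least 2-fold apart between SP and WT, against 3.86% of all pairs. On HFD the count was 3 of 99 (3.03%), against 3.96%. The shares of members past the fold were thus close to those of all genes. On ND, Nfkbia was higher in SP in the distal convoluted tubule, with a log2 ratio of 1.30 (0.87 to 1.74). There 10 of 11 early response genes were above 0 in the same comparison, with a median of 0.45, and their part was not tested. Rel was higher in SP on ND in the collecting duct, with a log2 ratio of 1.38 (0.30 to 2.58) on 39 UMIs. Nfkbiz was lower in mural cells, with a log2 ratio of -1.15 (-2.11 to -0.23), a call that held in 8 of 10 alternative settings. On HFD, Rel was lower in SP in the collecting duct, with a log2 ratio of -1.06 (-2.11 to -0.07), and Nfkb2 in the thin limb, with a log2 ratio of -1.61 (-2.78 to -0.53), while Relb was higher in B or plasma cells, with a log2 ratio of 1.67 (0.72 to 2.72). In B or plasma cells 24.2% of all genes passed the fold in that comparison, with a median of -0.40. That class mixes B cells and plasma cells, and the part of the mix was not tested. These libraries are the same as in the diet comparisons. WT-ND alone had the lowest collecting duct Rel, with 10 UMIs, and that 1 library stands in 2 of the comparisons.

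Smaller differences between SP and WT were seen where counts were deep. Endothelial Nfkbia had a ratio of 0.87 (0.75 to 0.99) on ND and 0.08 (-0.01 to 0.18) on HFD. The ND ratio was above 0 in the Esm1-led, Sapcd1-led and Slc14a1-led clusters alike, at 1.14 (0.84 to 1.44), 1.06 (0.88 to 1.24) and 0.82 (0.61 to 1.04), although the class ratio was short of 2-fold. Proximal tubule Nfkbia had 0.69 (0.45 to 0.93) on ND and 0.16 (-0.14 to 0.46) on HFD. On ND, 11 of 11 early response genes were above 0 in each of these classes, with medians of 0.25 in endothelial and 0.29 in proximal tubule cells. On HFD, 1 of 11 and 3 of 11 were above 0, with medians of -0.18 and -0.27. The part of these genes in the values of both classes was not tested. In macrophages on HFD, all 10 members were below 0, with a median of -0.43 beside -0.05 for all genes of the class, and none passed the fold. Rel was the lowest of them, at -0.92 (-1.16 to -0.68), followed by Tnfaip3 at -0.62 (-0.97 to -0.27). On ND, the median of the 10 macrophage ratios was 0.02. T cells on HFD went the same way, with a median of -0.42 over 8 members beside -0.08. Early response genes were lower in the same comparison, with 0 of 11 above 0 in either class and medians of -0.59 in macrophages and -0.52 in T cells, and their part was not tested. Proximal tubule Il1b on HFD was lower in SP, with a ratio of -3.62 (-6.70 to -1.69) on 49 WT and 2 SP UMIs, and Vcam1 and Ccl5 were lower there too, from 6.88 to 1.29 CPM and from 7.33 to 1.55 CPM between WT and SP. In WT-HFD that class also had the highest intercalated, endothelial, podocyte and natural killer marker sums, and their part was not tested. Over the named classes, the targets had 4 higher and 13 lower of 103 on ND and 7 higher and 11 lower of 103 on HFD. Of all gene and class pairs, 3.86% and 3.96% passed the fold. The named classes include B or plasma cells, where 30.6% and 24.2% of all genes passed.

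Over all kept cells, several ratios changed when the shares of the classes were held fixed. Rel was 6.72 CPM on ND and 12.7 CPM on HFD in WT mice, and 9.48 and 13.3 CPM in SP mice, lowest in WT-ND. The pooled log2 ratio between diets was 0.91 for WT and 0.49 in SP. With every class held at its mean share of UMIs, these became 0.35 and -0.46, so that the SP ratio changed sign. B or plasma cells, at a mean share of 2.05% of UMIs, had Rel at 217 CPM in SP-ND and 32.0 CPM in SP-HFD. The mix of B and plasma cells within that class was not held fixed, and its part in the change of sign was not tested. Nfkbia over all cells was 84.9 CPM on ND and 104 CPM on HFD in WT mice, and 123 and 142 CPM in SP mice, higher in both SP libraries than in either WT library. Its ratio of SP to WT was 0.54 on ND and 0.46 on HFD, and 0.29 and -0.04 at fixed shares. The median of all genes in the pooled comparison of SP with WT on HFD was itself 0.20. Ikbkb ratios lay between 0.06 and 0.21 pooled in the 4 comparisons and between 0.05 and 0.08 at fixed shares.

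**Figure D5:**
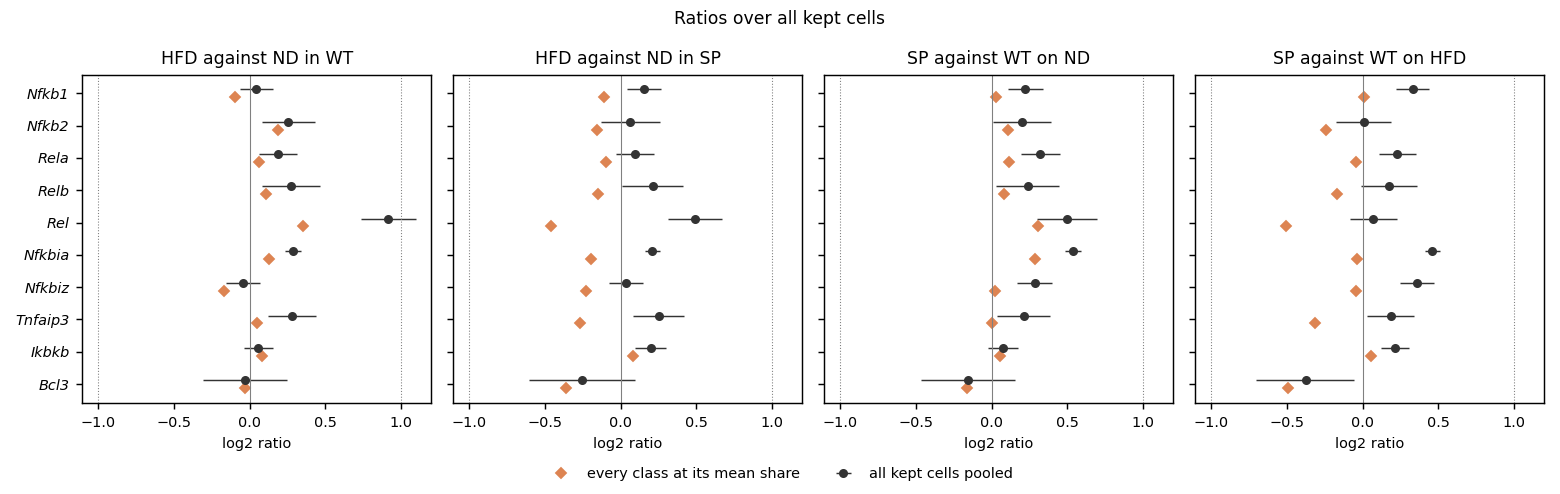
Log2 ratios over all kept cells for the 10 members in the 4 comparisons, as pooled and with each class held at its mean share of UMIs. Rel in SP on HFD moves from 0.49 pooled to -0.46 at fixed shares, and Nfkbia in SP against WT on HFD from 0.46 to -0.04. The mix of cells within a class, such as that of B and plasma cells, is not held fixed.

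A pair of unnamed clusters with proximal tubule markers was chosen with the clusters already known. One of them had 573 cells and was led by Ubd, a ubiquitin-like gene induced by cytokines, and by C3 and Ccl2. It held more of every member than the proximal tubule class, with ranges over the libraries that did not meet. Its Nfkb2 was 23.0 CPM on ND and 28.3 CPM on HFD in WT mice, and 22.2 and 24.8 CPM in SP mice, where the proximal tubule class had 3.83 to 5.31 CPM. Its Nfkbia was 86.4 CPM on ND and 129.7 CPM on HFD in WT mice, and 185 and 139.8 CPM in SP mice, where the class had 13.5 to 21.8 CPM, and Bcl3 ran from 10.2 to 17.4 CPM against 2.20 to 4.32 CPM. The cluster's proximal tubule markers summed to 5694 CPM (5098 to 6053 CPM), against 9439 to 11177 CPM in the class itself. These values are a description, since the same cells formed the clusters.

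The other cluster, with 1256 cells, came almost wholly from WT-HFD, with 1171 cells, and had markers of several classes together: proximal tubule markers summed to 4693 CPM, thick ascending limb markers to 3327 CPM and thin limb markers to 1183 CPM. Markers of cells outside the tubule were present as well, with B or plasma markers at 763 CPM, mural at 414 CPM, podocyte at 389 CPM and endothelial at 289.7 CPM, against 14.1, 11.2, 15.8 and 15.8 CPM in the proximal tubule class. Since 1 library supplied nearly all of it, a cell state and a feature of that library cannot be told apart. Within WT-HFD, Nfkbia was 66.0 CPM in the cluster, 16.7 CPM in proximal tubule cells and 149 CPM in the other kept cells of the library. Tnfaip3 was 6.71, 1.17 and 17.8 CPM in the same order. Rel was 5.42, 1.49 and 19.2 CPM. For these 3 genes the cluster lay between proximal tubule cells and the remainder of its library, and the part of those markers in this was not tested, while Ikbkb was nearly the same in the cluster and in proximal tubule cells (21.8 and 21.4 CPM).

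Across 79 profiles of a class or cluster in a library with at least 50 cells, the member most like Rel was Tnfaip3 (Pearson r = 0.81 of log2(CPM + 1)), and Nfkbia and Nfkbiz were alike at r = 0.79. The least alike were Rela and Bcl3, at r = 0.09. Profiles of one library share its depth and its free RNA, so these values describe the 79 profiles and carry no p. Of 12506 genes with at least 20 CPM in some profile, those closest to Rel were Fyb, Coro1a and Prkcb (r = 0.88 to 0.89), and to Tnfaip3, Stk17b, Nfkbid and Cd84 (0.87 to 0.89). Nfkbia was closest to Arpc1b, Btg1 and H3f3b (0.88 to 0.89), and Nfkbiz to Zfp36, at 0.85, then Btg1 and Hmgb2. Nfkb1 was closest to Klf13, Tpm3 and Samhd1 (0.77 to 0.79), Rela to Rac1, Tfe3 and Arfrp1 (0.77 to 0.78) and Ikbkb to Arhgap17, at 0.83.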

How the data were processed

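Whole-kidney scRNA-Seq was analysed from 4 libraries, 1 per condition. The authors deposited raw UMI counts per gene and barcode, not normalized, made with Cell Ranger and not filtered further than a minimum of 500 UMIs per barcode as the values show. The version is 6.1.2 in the matrix header and 2.1.1 in the submitters' processing notes, and the paper's methods give another. The notes name the genome build mm10. Library depth ran from 90728590 to 115117649 UMIs.

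Cells with 200 to 5000 genes and under 50% mitochondrial UMIs were kept. The tools that the study used for free RNA and doublets were not run: no free RNA was subtracted, and the cells with the most simulated doublets among their 50 nearest neighbours were removed, at 0.8% per 1000 cells. Kept cells were integrated by CCA and clustered (50 components, resolution 0.5) with Seurat 5.3.0 in R 4.3.3, without the members, the pathway genes and the early response genes among the clustering features. A cluster took a class name where the class's markers had a mean log2 ratio of at least 1 over other cells, at least 3 of them were detected, and its top 10 genes did not favour another class. A cluster with median UMIs under 1/3 of the library median and no marker of the class among its top 10 genes stayed unnamed. So did a cluster with at least 2 globin genes among them. The largest unnamed cluster, of 3104 cells, scored best for proximal tubule and was left out for its depth. Counts were summed by class and library in Python 3.11.15 with pandas 2.3.3, scipy 1.17.1 and numpy 2.4.6 and scaled to CPM. Ratios needed at least 50 cells in both libraries and at least 30 UMIs over both. The ratios, intervals and fold calls were checked on counts drawn with known fold changes, for the WT diet comparison in collecting duct cells. Those draws carried counting error only. Filtering, doublet removal, clustering and class naming were not simulated.

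With 1 library per condition no test was possible, and no p-value or standard error is given. The members and lists were chosen with earlier results of these data known. Named genes are the 10 members, for each list, class and comparison up to 2 genes with the largest ratio, for each list the 2 genes with the highest level in a class, and for each member the 3 genes most like it. Other list genes named beside a count of 5 or fewer, and the clusters within classes, were singled out after their values were seen. Alternatives were no integration, resolution 1.0, other limits on mitochondrial UMIs, UMIs per cell and doublets, the mean of CPM per cell, mitochondrial UMIs left out of the total, ratios less the median, other UMI minimums and a 1.5-fold line. Fixed cluster shares within a class and leaving out B or plasma cells were added after seeing the data.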

Additional observations from a re-analysis of the deposited data

Results flagged for a closer look

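In 7 pairs of member and class, 2 comparisons of the same kind had log2 ratios on opposite sides of 0 with both counting intervals clear of it. The difference between the ratios was not tested, because each rests on 1 library per group. How many of all gene and class pairs meet the same rule was not counted. The counts below therefore do not show whether the members differ from other genes. Of 88 pairs with a diet ratio in both genotypes, 38 had opposite signs and 2 met this rule. Nfkbia in the distal convoluted tubule was 0.64 (0.17 to 1.12) for HFD against ND in WT and -0.89 (-1.27 to -0.51) in SP. Nfkbia in endothelial cells was 0.67 in WT and -0.12 in SP, the latter close to 0.

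Of 86 pairs with a ratio of SP to WT on both diets, 52 had opposite signs and 5 met it. Rel in the collecting duct was 1.38 (0.30 to 2.58) on ND and -1.06 (-2.11 to -0.07) on HFD, each on 40 or fewer UMIs. Nfkbia in the thin limb was -0.71 on ND and 0.41 on HFD, and Nfkbia in the collecting duct was -0.39 and 0.38. Nfkbia in podocytes, the filter cells of the glomerulus, was 0.40 on ND and -0.38 on HFD. Nfkbiz in the thick ascending limb was 0.59 on ND and -0.52 on HFD. Early response genes had SP to WT medians, on ND and HFD, of -0.49 and 0.24 in the thin limb and -0.35 and 0.24 in the collecting duct. Their medians were 0.27 and -0.73 in podocytes and 0.43 and -0.77 in the thick ascending limb. These have the signs of Nfkbia or Nfkbiz in the same class, and the reverse of those of Rel in the collecting duct. The part of these genes was not tested. The same 4 libraries enter the comparisons by diet and by genotype, so these values are not independent of those by diet.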

How the results depend on the processing

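With 1 library per condition, no replicate could be left out, and the spread between animals is unknown. No paired analysis was possible because each group holds 1 library. Over 380 pairs of member, class and comparison, 3711 values were recomputed. Of these, 3655 lay within the counting interval of the reported value, 54 lay outside it, and 2 reversed. A reversal was counted only for the 29 pairs past the fold, and changes of sign in the other pairs were not counted. The reversed values were Relb (0.24) and Ikbkb (1.26) in B or plasma cells of SP mice on HFD against ND with cluster shares held fixed. The count of 12 pairs of member and class past 2-fold in WT on HFD became 5 with at least 100 UMIs and 32 at 1.5-fold. The count of 11 in SP became 2 with at least 100 UMIs, 20 with at least 10 UMIs, 20 at 1.5-fold, 6 with cells of at least 1000 UMIs, 5 with cells under 30% mitochondrial, 6 with more doublets removed, 6 without B or plasma cells, and 7 with no doublets removed and no integration, with ratios less the median, or at fixed cluster shares. The count of 3 for SP against WT on ND became 1 and 12 with at least 100 and 10 UMIs, 16 at 1.5-fold, 6 with no integration, and 5 under 30% mitochondrial UMIs or with more doublets removed. On HFD it became 0 and 7 with at least 100 and 10 UMIs, 15 at 1.5-fold and 9 with the mean of CPM per cell. The pairs tested and the share of all genes past the fold also change with the setting and are not given beside these counts. The counts alone thus do not show whether the members exceeded all genes in a setting. Other minimums, folds and subsets change what is counted. SP-ND held 53 B or plasma cells, near the minimum of 50. The SP diet pairs of that class past the fold each had a value in 6 settings, and left the count where they had none. The cause of the other moves was not tested. Depth limits Bcl3, Rel, Relb and Nfkb2 outside leukocytes, where many pairs rest on fewer than 50 UMIs.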
